A study of Rattus with 6 samples.

Results

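The genes described are 10 circadian clock genes, Per1, Per2, Per3, Cry1, Cry2, Arntl, Nr1d1, Dbp, Ciart and Bhlhe40, chosen by symbol from the 30211 genes of a read count table. All 10 were in the table and all 10 passed the filter on low counts. The table came from RNA sequencing of wild-type rat bone marrow mesenchymal stem cells (BMSC), stromal cells with the capacity to become bone, cartilage or fat cells. The 3 control libraries came from cells cultured without dexamethasone and the 3 dexamethasone libraries from cells given 100 uM of it, and both groups were collected after 4 days. Dexamethasone is a synthetic agonist of the glucocorticoid receptor. The labels name no rat strain, age or sex, no vehicle and no hour of collection, and they leave unsaid if each replicate was its own culture. The p-values therefore reflect only how far these libraries differ among themselves, and that spread may be technical. With 1 time point per group, the values are levels, and neither the phase nor the amplitude of a rhythm can be read from them.

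The circadian clock is a loop of transcription factors that most cells carry. ARNTL, also called BMAL1, pairs with CLOCK and activates genes that hold E-box elements, among them the period (Per) and cryptochrome (Cry) genes, whose proteins return to the nucleus and repress the pair. A further loop runs through the nuclear receptor NR1D1, which represses Arntl, and outputs run through factors such as DBP. Per1 is also a well-known direct target of the glucocorticoid receptor, and glucocorticoids can reset clocks in peripheral tissues.

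The labels were checked first, because their treatment tag reads the same for all 6 samples. Fkbp5 and Tsc22d3, established glucocorticoid receptor targets, stood at 69.0 to 71.0 and 15.4 to 18.1 CPM (read counts after TMM scaling for library size) in the controls and at 1290 to 1430 and 123 to 129 CPM in the dexamethasone libraries. Nr3c1, the receptor gene, stood at 200 to 205 CPM against 146 to 152 CPM. Library totals ranged from 34835072 to 41676315 counts. Of 10 markers of marrow stroma, 9 were in the table, and their summed level was 3003 to 3073 CPM in controls and 2464 to 2489 CPM with dexamethasone. Of these 9, 4 rose, 4 fell and 1 did not pass (adjusted p below 0.05, edgeR): Col1a1 went from 1138 ± 16.4 to 665 ± 8.43 CPM (SD, n = 3) and Pdgfrb from 616 ± 11.8 to 137 ± 7.94 CPM, while Pdgfra went from 598 ± 2.59 to 965 ± 20.2 CPM. The 10 markers of macrophages and other blood cells summed to at most 13.9 CPM in the controls and to 8.85 to 9.68 CPM with dexamethasone, with 0 of 7 tested members higher, 4 lower and 3 not passing, where 64.0% of all tested genes passed and 31.7% were lower. Adgre1 and Tyrobp among them had no count in any library, a result that leaves room for a level of at most 0.170 CPM in the shallowest library. Of the blood cell sum, Cd14 made up 7.27 CPM in the controls and 7.65 CPM with dexamethasone (means, edgeR adjusted p = 0.544). Cd74 went from 1.74 ± 0.364 to 0.139 ± 0.0911 CPM and Cd53 from 1.40 ± 0.205 to 0.127 ± 0.0477 CPM (SD, n = 3). Endothelial, osteoblast and adipocyte markers each summed to at most 1.72 CPM in every library. The endothelial sum was 0.600 to 1.09 CPM in the controls and 1.36 to 1.72 CPM with dexamethasone, with Pecam1 absent from the table. The adipocyte sum was 0 to 0.0519 CPM and 0.170 to 0.237 CPM, from few counts, and the osteoblast sums of the groups overlapped. The part of such cells in the differences below was not tested, and in bulk RNA a change in the number of cells of a type cannot be told apart from a change in RNA per cell.

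All 10 clock genes differed between the groups, 2 higher and 8 lower with dexamethasone. Per1 rose 3.08-fold while its relatives Per2 and Per3 fell. The largest falls among the 10 were in Ciart (7.34-fold), Bhlhe40 (5.73-fold) and Per3 (4.27-fold). The other changes were under 1.7-fold. Ciart, Bhlhe40 and Per3 encode repressors in the loop, but so do Per1, Per2, Cry1, Cry2 and Nr1d1, most of the list. A gene counted as changed where the p of edgeR's quasi-likelihood test, adjusted by Benjamini-Hochberg over all 14111 tested genes, was below 0.05. Of all tested genes 64.0% were called, 32.3% higher and 31.7% lower, so a call alone says little here. The list was chosen with earlier results of these data known, so the comparisons with all genes that follow may not be independent of the data. The median size of the 10 log2 fold changes was 0.73, against 0.31 over all tested genes. Of the 10, 4 changed at least 2-fold, against 15.6% of all tested genes. With the biological coefficient of variation set to 0.2, 6 of the 10 passed, against 26.2% of all tested genes, and 4 of the 10 passed a test against a fold of 1.5, against 20.0% of all tested genes. Control and dexamethasone libraries were fully apart for each of the 10, as for 66.9% of all tested genes.

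**Figure D1:**
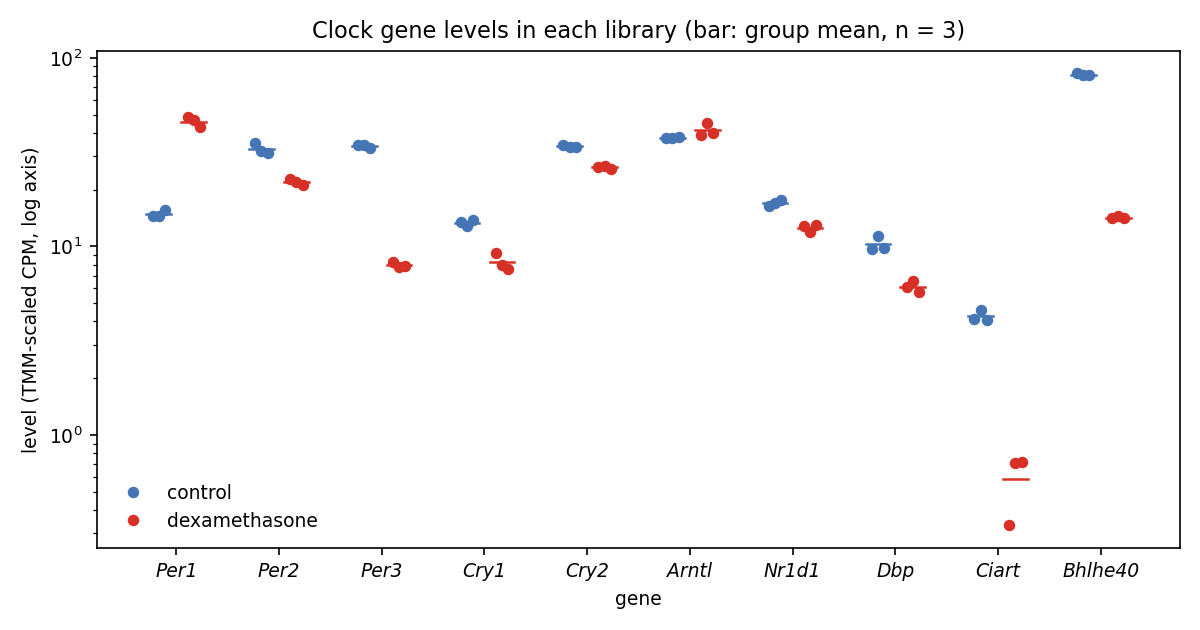
Level of each clock gene in each of the 6 libraries, in TMM-scaled CPM on a log axis, with points for libraries and bars for group means (n = 3). Per1 is the gene with the clearest rise, from 14.5 to 15.5 CPM in the controls to 43.0 to 48.3 CPM, while Per3, Ciart and Bhlhe40 lie well below their controls.

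Arntl, the partner of CLOCK on E-boxes (chromosome 1, 178039063 to 178137465), was nearly level. It stood at 37.6, 37.4 and 38.1 CPM in control replicates 1 to 3 and at 39.1, 45.2 and 39.7 CPM in dexamethasone replicates 1 to 3. The groups did not overlap, but dexamethasone replicate 2 lay apart from the other 2 libraries of its group. The log2 fold change was 0.13 ± 0.067 (SE), with an adjusted p of 0.025 by edgeR's quasi-likelihood test. This call was lost without dexamethasone replicate 2 (log2 0.07, adjusted p = 0.277), without control replicate 1 (adjusted p = 0.0521) or 2 (0.0670), with DESeq2 (0.0565), with the biological coefficient of variation set to 0.2 (0.773) and in a test against a fold of 1.5 (adjusted p = 1).

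The period genes moved apart. Per1 (chromosome 10, 55687050 to 55695994) stood at 14.6, 14.5 and 15.5 CPM in the controls and at 48.3, 46.5 and 43.0 CPM with dexamethasone. Each dexamethasone library thus lay far above every control, with a log2 fold change of 1.63 ± 0.059 (SE) and an adjusted p of 3.6e-27 (edgeR). Per2 (chromosome 9, 98555169 to 98597359), whose loss disturbs the rhythm of mice most plainly, went the other way, with 35.2, 32.2 and 31.3 CPM against 22.8, 21.9 and 21.2 CPM. Its log2 fold change was -0.58 ± 0.060 with an adjusted p of 8.6e-12, a call lost at a coefficient of variation of 0.2 (adjusted p = 0.0551) and against a fold of 1.5 (0.895). Per3 (chromosome 5, 168086998 to 168123395), the member least needed for rhythm in mice, ran at 34.3, 34.5 and 33.2 CPM against 8.22, 7.74 and 7.91 CPM. The replicates of Per3 differed little, and its log2 fold change was -2.09 ± 0.031 with an adjusted p of 7.1e-29.

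The makeup of the period family therefore differed between the groups. Levels were divided by exon length so that genes could be compared (CPM per kilobase). The summed period level was 15.0, 14.5 and 14.4 CPM per kilobase in the controls and 17.1, 16.5 and 15.5 CPM per kilobase with dexamethasone. Per1 made up 24.0%, 24.8% and 26.7% of that sum in the controls and 69.6%, 69.7% and 68.5% with dexamethasone. Per1 was thus the smallest contributor in every control library and the largest in every dexamethasone library. The share of Per2 went from 38.9% ± 1.55 (SD, n = 3) to 23.2% ± 0.347, and that of Per3 from 36.0% ± 0.774 to 7.52% ± 0.326. Ratios within a library do not depend on how libraries are scaled to each other. The log2 ratio of Per1 to Per2 per kilobase was -0.76, -0.63 and -0.50 in the controls and 1.60, 1.60 and 1.54 with dexamethasone, a difference of 2.21 ± 0.078 (SE) or 4.62-fold. The ratio of Per1 to Per3 differed by 3.72 ± 0.066 (13.2-fold) and that of Per2 to Per3 by 1.51 ± 0.050 (2.85-fold), both on the log2 scale. All 6 ratios computed between clock genes separated the groups fully. The two-sided exact permutation test over samples gave p = 0.1 for each, the smallest that 3 libraries against 3 allow. After adjustment over the 6 it was 0.1. For Per1 to Per2, Per1 to Per3, Dbp to Arntl and Nr1d1 to Arntl, that separation was fixed in advance. Both genes of each such pair were themselves fully apart between the groups, in opposite directions.

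**Figure D2:**
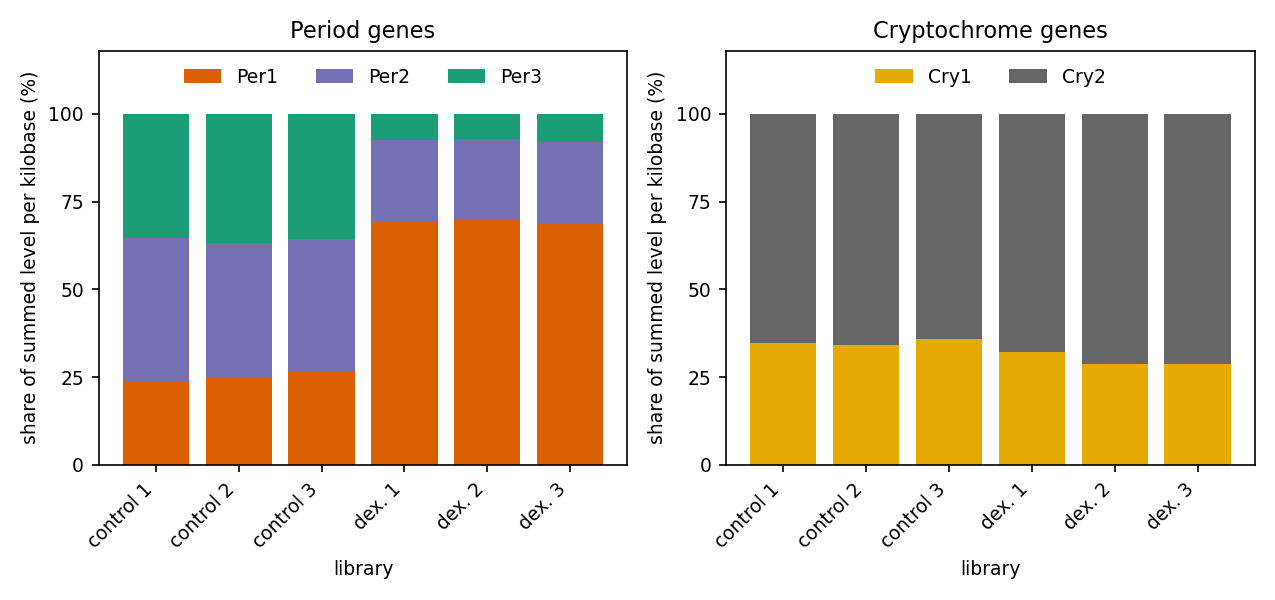
Share of each gene in the summed level per kilobase of the period genes (left) and the cryptochrome genes (right), in percent, for each library. Per1 goes from 24.0% to 26.7% of the period sum in the controls to 68.5% to 69.7% with dexamethasone, while the cryptochrome makeup differs by a few percentage points.

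Both cryptochromes, the main repressors of the CLOCK and ARNTL pair, were lower. Cry1 (chromosome 7, 24534615 to 24634097) had 13.4, 12.8 and 13.8 CPM in the controls against 9.19, 7.94 and 7.56 CPM under dexamethasone. Cry2 (chromosome 3, 81314149 to 81344110) was measured at 34.5, 33.5 and 33.7 CPM in controls and 26.4, 26.8 and 25.6 CPM under dexamethasone. Every dexamethasone library was below every control for both genes. The log2 fold changes were -0.70 ± 0.090 (SE, adjusted p = 3.7e-09) for Cry1 and -0.37 ± 0.023 (adjusted p = 8.1e-08) for Cry2 (edgeR). Cry1 did not pass against a fold of 1.5 (adjusted p = 0.155), and Cry2 passed neither that test (adjusted p = 1) nor the one at a coefficient of variation of 0.2 (0.293). Per kilobase, Cry2 was the more abundant in every library. Cry1 made up 34.9% ± 0.839 (SD, n = 3) of the cryptochrome sum in the controls and 29.8% ± 1.96 with dexamethasone, and the log2 ratio of Cry1 to Cry2 differed by -0.33 ± 0.083 (SE). The summed cryptochrome level was 13.1 ± 0.244 (SD, n = 3) and 9.43 ± 0.390 CPM per kilobase. Per kilobase, the period sum was thus higher and the cryptochrome sum lower in all 3 dexamethasone libraries than in any control. The higher period sum rests on the exon lengths used, 4049 bases for Per1, 5783 for Per2 and 6466 for Per3. Summed in CPM without that division, the period genes were lower in every dexamethasone library than in any control.

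Nr1d1, which encodes the heme-binding repressor REV-ERB alpha (chromosome 10, 86683875 to 86690815), had 16.3, 17.1 and 17.7 CPM in the controls against 12.8, 11.9 and 13.1 CPM under dexamethasone. Its log2 fold change was -0.43 ± 0.054 (SE) with an adjusted p of 2.5e-06 (edgeR), and the call was lost at a coefficient of variation of 0.2 (adjusted p = 0.198) and against a fold of 1.5 (adjusted p = 1). Nr1d1 was the only one of the 10 whose exons overlapped another gene in the table. It shares 263 exon bases, 10.3% of its own, with Thra, the thyroid hormone receptor alpha gene on the opposite strand, and no source used here gives the strand setting of the counts, so some of its counts may belong to Thra. Thra itself was level, at 79.8 ± 4.98 CPM (SD, n = 3) in the controls and 80.1 ± 2.17 CPM in the treated libraries (edgeR adjusted p = 0.910).

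Dbp, a PAR bZIP factor that activates D-box genes and is among the most strongly rhythmic clock outputs in many tissues (chromosome 1, 101687855 to 101692846), was lower with dexamethasone. It had 9.70, 11.4 and 9.80 CPM in the controls against 6.07, 6.55 and 5.74 CPM under dexamethasone, a log2 fold change of -0.75 ± 0.093 (SE, adjusted p = 1.1e-08, edgeR). The call was lost against a fold of 1.5 (adjusted p = 0.0696). Relative to Arntl in the same library and per kilobase, Dbp was lower by -0.88 ± 0.088 and Nr1d1 by -0.57 ± 0.111 on the log2 scale (dexamethasone minus control, SE). Dexamethasone replicate 2, the library high in Arntl, had the lowest log2 ratio of Nr1d1 to Arntl, -1.71 against -1.39 and -1.38, and all 3 lay below the controls at -0.99 to -0.88.

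The E-box repressors outside the period and cryptochrome families showed the 2 largest falls of the 10. Ciart, also known as CHRONO, a repressor that binds the ARNTL complex (chromosome 2, 197987705 to 197991574), had 158, 182 and 163 counts in the controls and 14, 25 and 29 counts with dexamethasone. In CPM these were 4.10, 4.61 and 4.07 against 0.332, 0.709 and 0.714. Dexamethasone replicate 1 was lower than its fellows, at few counts, and every control was above all 3. The log2 fold change was -2.88 ± 0.34 (SE) with an adjusted p of 9.2e-16 (edgeR), the least precise of the 10. Bhlhe40, also called DEC1, a basic helix-loop-helix repressor that competes for E-boxes and also responds to hypoxia and other signals (chromosome 4, 140703619 to 140709319), had 82.7, 80.6 and 80.6 CPM in the controls against 14.1, 14.4 and 14.1 CPM under dexamethasone. It was the most precise of the 10, with a log2 fold change of -2.52 ± 0.016 and an adjusted p of 1.3e-37.

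**Figure D3:**
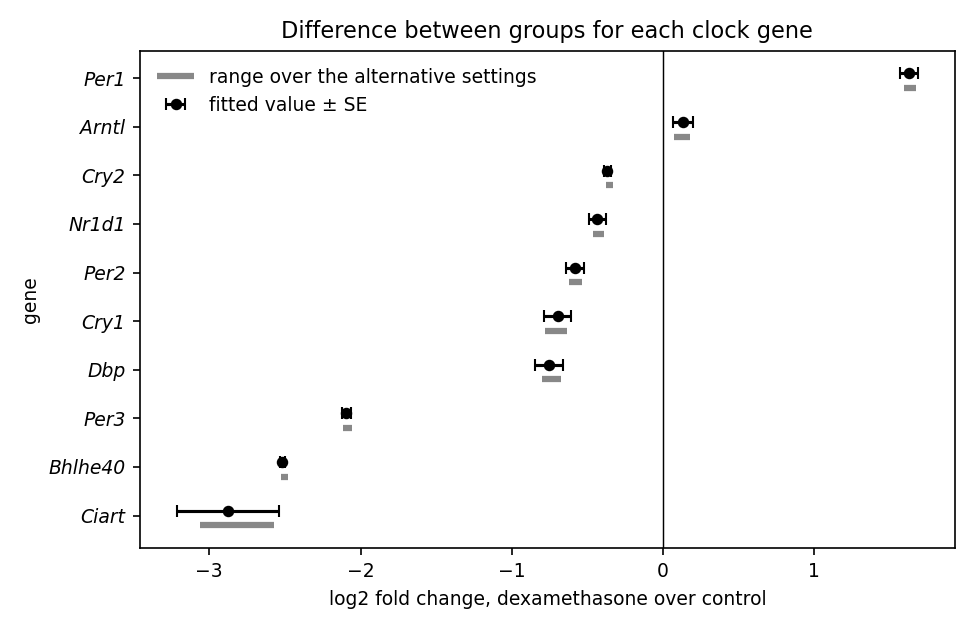
Log2 fold change of each clock gene, dexamethasone over control, with its SE (black points and bars) and the range of the value over the 14 alternative settings (grey bars). Per1 and Arntl lie above 0 and the other 8 below it under every setting shown, and only Per3, Bhlhe40 and Ciart lie below -2.

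The order of the 10 genes by level per kilobase changed. In the controls Bhlhe40 was highest, at 34.2 ± 0.518 CPM per kilobase (SD, n = 3), followed by Arntl at 12.7 ± 0.117 and Cry2 at 8.54 ± 0.125. Nr1d1 (6.68 ± 0.281), Dbp (6.05 ± 0.563) and Per2 (5.69 ± 0.353) came next, and libraries of neighbours in this stretch overlapped. Per3, Cry1, Per1 and Ciart followed at 5.26, 4.57, 3.68 and 2.45 CPM per kilobase with no overlap between neighbours. With dexamethasone Arntl was highest at 13.9 ± 1.13, and Per1 moved from rank 9 to rank 2 at 11.3 ± 0.669. Cry2 followed at 6.61 ± 0.157, and Bhlhe40 moved from rank 1 to rank 4 at 5.98 ± 0.0773. Nr1d1 stood at 4.94, and Per2 and Dbp (3.80 and 3.59) overlapped. Cry1, Per3 and Ciart came last, at 2.82, 1.23 and 0.337 CPM per kilobase. These ranks depend on the exon lengths used. In CPM with dexamethasone, the mean of Per1 (45.9) lay above that of Arntl (41.3), and Bhlhe40 (14.2) lay below Per2 (22.0).

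**Figure D4:**
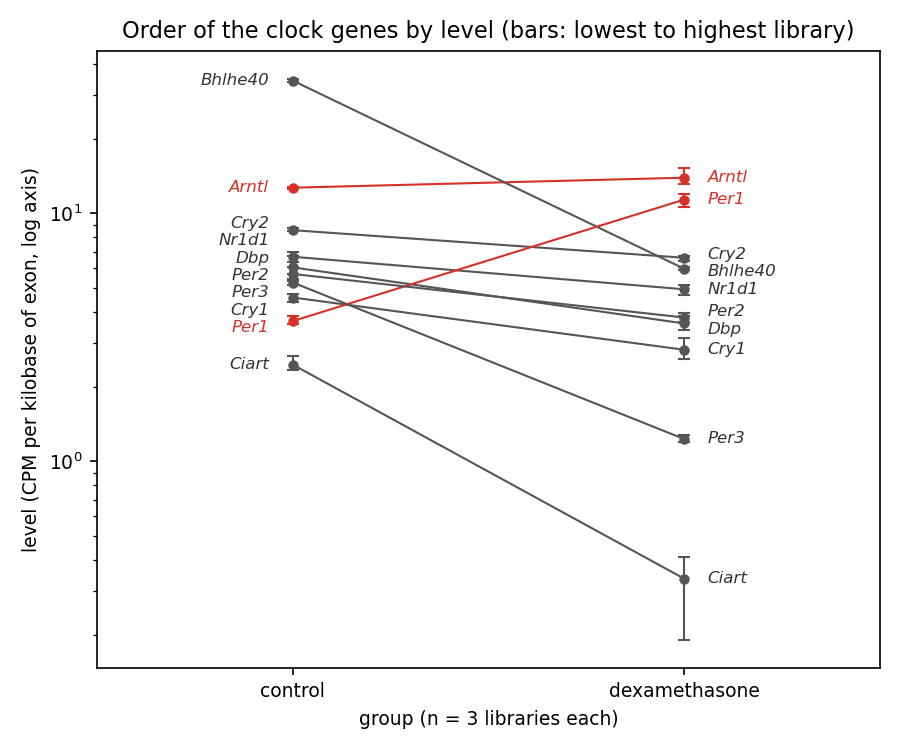
Mean level of each clock gene in CPM per kilobase of exon (log axis) in the control and dexamethasone groups, with bars from the lowest to the highest of the 3 libraries and the 2 genes that rose in red. Per1 moves from rank 9 to rank 2 and Bhlhe40 from rank 1 to rank 4.

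Other genes of the pathway were examined as a list of 30, of which 27 passed the filter on low counts. Of these 7 rose, 12 fell and 8 did not pass, a share of 70.4% called against 64.0% of all tested genes, with a median log2 fold change of 0.01. With library size alone in place of TMM scaling, 10 rose and 10 fell. Changes of at least 1.5-fold were called for 11 of the 27, against 27.4% of all tested genes.

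Among the activators, Clock, the partner of ARNTL, stood at 68.5, 68.4 and 65.2 CPM in the controls against 58.5, 63.2 and 65.7 CPM under dexamethasone, and the groups overlapped. Its log2 fold change was -0.11 (adjusted p = 0.022, edgeR). The call was lost with library size alone (adjusted p = 0.140), without control replicate 1 (0.0643) or 2 (0.0722), without dexamethasone replicate 1 (log2 -0.06, 0.257), at a coefficient of variation of 0.2 (0.821) and against a fold of 1.5 (adjusted p = 1). Npas2, which can stand in for CLOCK, fell from 42.6 ± 1.75 to 28.0 ± 1.14 CPM (SD, n = 3), a log2 fold change of -0.61 (adjusted p = 6.7e-14) that did not pass against a fold of 1.5 (0.535). Arntl2, the paralogue of Arntl, rose from 5.15 ± 0.514 to 11.9 ± 0.760 CPM, 2.31-fold (adjusted p = 2.4e-14). The activator genes therefore did not move as one: Arntl and Clock were nearly level, while their paralogues moved in opposite directions.

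In the nuclear receptor loop, Nr1d2, which encodes REV-ERB beta, had 54.6, 51.1 and 52.8 CPM in the controls against 25.0, 27.1 and 27.8 CPM under dexamethasone. Its log2 fold change was -0.99 ± 0.053 (SE, adjusted p = 1.6e-21, edgeR), so both REV-ERB genes were lower. Rora and Rorb, which encode activators that bind the same elements, were scarce. Rora had at most 6 counts in any library and was not tested. Rorb fell from 24, 51 and 26 counts to 13, 12 and 12 (log2 -1.44, adjusted p = 9.7e-04), with control replicate 2 well above the others, and without that library its log2 fold change was -1.01 (edgeR adjusted p = 0.0459).

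Of the D-box factors, Tef, a PAR bZIP relative of Dbp, fell from 14.5 ± 0.632 to 8.67 ± 0.730 CPM (SD, n = 3). Its log2 fold change of -0.74 (adjusted p = 3.3e-10, edgeR) lay close to that of Dbp, and it likewise missed the threshold against a fold of 1.5 (adjusted p = 0.0544). Hlf, the other relative, had at most 3 counts in any library and was not tested. Nfil3, which represses through the same elements, stood at 47.4 ± 1.70 and 47.6 ± 2.21 CPM and showed no called change (log2 0.01, adjusted p = 0.891). Bhlhe41, the paralogue of Bhlhe40 also called DEC2, fell from 13.6, 13.3 and 14.7 CPM to 3.81, 4.88 and 4.70 CPM. Its log2 fold change was -1.64 ± 0.12 (SE, adjusted p = 1.1e-18), so both DEC genes fell.

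Of the other repressors and partners, Timeless, which also works at replication forks, rose from 43.8 ± 1.48 to 99.4 ± 0.553 CPM (SD, n = 3), 2.27-fold (adjusted p = 1.0e-28, edgeR). Among 8 genes of clock protein turnover, 1 rose, 3 fell and 4 did not pass, so 50% were called, against 64.0% of all tested genes. Fbxl21, an F-box protein that binds cryptochromes, was the one that rose, from 5.21 ± 0.312 to 11.6 ± 0.632 CPM (adjusted p = 4.7e-14). The kinase genes Csnk1d and Csnk1e, whose products phosphorylate period proteins, did not pass (log2 0.01 and -0.09, adjusted p = 0.754 and 0.113), although Csnk1e passed without control replicate 3 (log2 -0.16, adjusted p = 0.00179).

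Among 7 clock-linked outputs, 3 rose, 3 fell and 1 did not pass, where 64.0% of all tested genes were called, 32.3% higher and 31.7% lower. One of the falls, named after its value was seen, was the cold-inducible Rbm3, whose groups overlapped (log2 -0.10, adjusted p = 0.038, edgeR). The Rbm3 call was lost with library size alone (adjusted p = 0.243), without control replicate 2 (0.142) or 3 (0.168) and without dexamethasone replicate 1 (0.192) or 3 (0.134). It was also lost at a coefficient of variation of 0.2 (edgeR adjusted p = 0.840) and against a fold of 1.5. Klf9, a Krüppel-like factor that is both a clock output and a glucocorticoid receptor target, rose 3.31-fold, from 22.5 ± 1.08 to 74.7 ± 1.96 CPM (SD, n = 3, adjusted p = 9.5e-32, edgeR). Wee1, a kinase that restrains entry into mitosis, rose 2.27-fold, from 13.8 ± 0.399 to 31.2 ± 1.75 CPM (adjusted p = 1.5e-20). Por, the electron donor of microsomal cytochrome P450 enzymes, fell from 167 ± 3.01 to 96.9 ± 2.92 CPM (log2 -0.78, adjusted p = 1.2e-24).

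**Figure D5:**
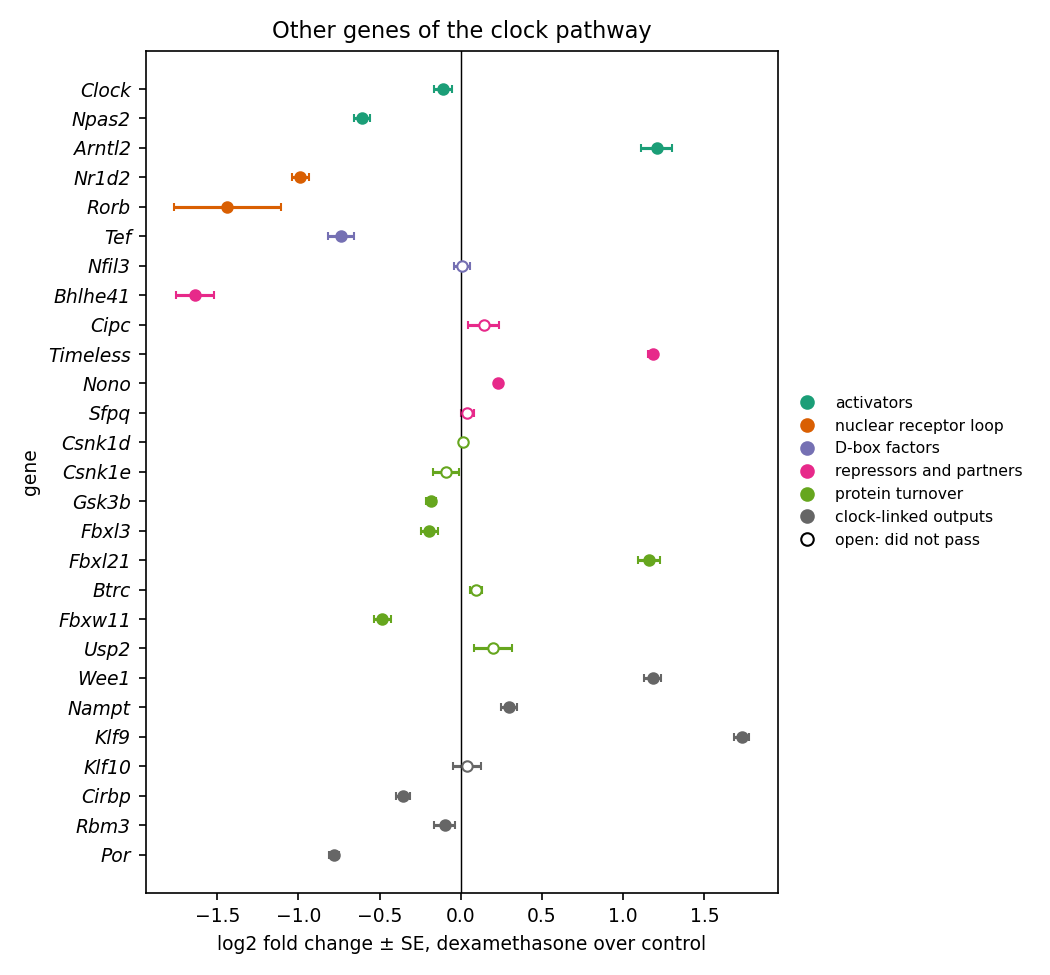
Log2 fold change, dexamethasone over control, with its SE, for the 27 tested genes of the wider clock pathway, coloured by role, with open points for genes that did not pass. Arntl2, Timeless, Fbxl21, Wee1 and Klf9 lie above 1, and Bhlhe41 and Rorb below -1.

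The pattern of Per1 over the 6 libraries was compared with tested genes outside the 10 that had a conventional symbol and a mean of at least 5 CPM. The nearest of these were Crabp2, a retinoic acid binding protein, Ncaph, a condensin subunit, and Ska1, a component of the mitotic spindle and kinetochore. Their Euclidean distances from Per1 in centred log2 CPM were 0.094, 0.107 and 0.124. Crabp2 rose from 16.2 ± 0.598 to 50.1 ± 2.11 CPM, Ncaph from 14.9 ± 0.142 to 44.6 ± 2.15 CPM and Ska1 from 7.28 ± 0.514 to 21.4 ± 0.606 CPM (SD, n = 3). With 2 groups of 3, this likeness rests mostly on a fold change of the same size.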

How the data were processed

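The authors deposited read counts per gene for the 6 libraries in a single table, with exon coordinates and length in bases, per the file headers. Aligner, counting program and strand setting: not given in the sources used here. The submitters' processing notes name mm10, a mouse build, but the symbols of the table were those of the rat: all 10 clock genes matched the rat RefSeq table (GRCr8) on the same chromosome, 9 by symbol and Arntl as a synonym of Bmal1. Coordinates are those of the table, in a rat build not given in the sources used here. No sequence is printed.

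Samples were grouped by title. Genes were filtered with filterByExpr (14111 of 30211 kept), normalized by TMM and fitted in edgeR 4.0.16 (R 4.3.3) with its robust quasi-likelihood test, with no covariate and Benjamini-Hochberg adjustment. SEs come from log2 CPM with a prior count of 2. A count of 0 was given a floor of 6 counts, taken as 3 read pairs, because 72% of values of 1 to 10 were even. Floors cover counting error only. Genes named were all 10 members, listed pathway genes called at 1.5-fold or more or fixed by role, and the 3 label checks. Also named were the 3 nearest to Per1 (mean of at least 5 CPM and a conventional symbol) and Thra by overlap. Cell type markers came from lists, and no rule set which of them were named singly. One listed pathway gene is not reported here. Csnk1d and Csnk1e were chosen after their values were seen. Members and lists were chosen with earlier results of these data known. Alternatives used DESeq2 1.42.0 and limma 3.58.1. The code was tested on simulated data.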

Additional observations from a re-analysis of the deposited data

How the results depend on the processing

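Over 14 alternative settings no clock gene changed direction, and Per1, Per3, Ciart and Bhlhe40 passed under every one of them. The test against a fold of 1.5 keeps the fitted value, so it could not change a direction. Leaving out 1 library could hardly do so either, as the groups were fully apart for all 10 genes. With the biological coefficient of variation set to 0.2, against the 3.66% estimated from these libraries, 6 of the 10 clock genes passed (1 up, 5 down), as did 11 of the 27 other pathway genes and 3693 (26.2%) of all genes. Tested against a fold of 1.5, 4 clock genes (1 up, 3 down), 9 other pathway genes and 2827 (20.0%) of all genes passed. Both settings ask for larger differences by construction. Leaving out 1 library at a time gave 9 to 10 clock genes, 17 to 19 other pathway genes and 8570 to 8757 genes in all, and Arntl was the clock gene lost. Replicate numbers were not shown to pair the libraries: same-numbered libraries had correlations of deviations from their group means of -0.008 to 0.020. With the replicate block, 10 clock genes, 19 other pathway genes and 8991 genes passed, and it changed no call of a clock gene. The 6 ratios kept their sign without each library in turn, which was fixed in advance because each separated the groups fully. Depth limits Ciart, with 14 to 29 counts per dexamethasone library, and Rora, Rorb and Hlf.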
